A study of Mus musculus with 6 samples.

Results

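The nuclear genes for the subunits of the respiratory chain and the ATP synthase were followed in 10T1/2, a clonal mouse line of embryonic fibroblasts from which muscle, fat, cartilage and bone cells can be derived by culture treatments. Members were the probe sets that the platform annotation assigns to exactly 1 gene whose symbol starts with Ndufa, Ndufb, Ndufc, Ndufs, Ndufv, Uqcr, Cox4 to Cox8 or Atp5, without the Ndufaf assembly factors, or is Sdha, Sdhb, Sdhc, Sdhd, Cyc1 or Cycs. This gave 84 genes of the 18194 measured, through 174 of 45265 probe sets. The study had 1 group of untreated cells, grown in DMEM with 10% fetal bovine serum and harvested when 80% confluent. There were 3 RNA samples with the numbers 1, 4 and 5, each measured on 1 array of the MOE430A design and 1 of the MOE430B design. These are Affymetrix oligonucleotide array designs that cover different transcripts, and the stated purpose was to find genes that the line shares with stem cells so that they can be removed from stem cell profiles. The labels give no genotype, treatment or contrast, and they leave unstated whether separate cultures were taken, so the spread between samples may be technical. With 1 group no comparison of conditions exists, so values are given as a description of these samples and no p-value is given.

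The respiratory chain moves electrons from NADH and succinate to oxygen through complexes I to IV in the inner mitochondrial membrane, with cytochrome c as the mobile carrier between complexes III and IV. Proton pumping by complexes I, III and IV drives complex V, the ATP synthase. Nuclear genes supply all of complex II and most subunits of the others, several complex IV subunits and the c subunit of complex V have more than 1 gene, and NRF-1, GABPA, YY1 and CREB are known regulators of these genes in mammalian cells.

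Signals were MAS5 intensities, scaled by array to a trimmed mean of about 1500. The 2 designs were kept apart. Detection required a signal over a background limit on all 3 arrays of a design, and 1 such probe set was enough for a gene. The limit was the 95th percentile of probe sets of genes known from unrelated tissues such as liver, pancreas and retina. It lay between 913 and 1176 on the MOE430A arrays and between 2652 and 3086 on the MOE430B arrays, where it rested on only 21 probe sets. Of 12 fibroblast markers, 11 were detected on MOE430A, and Thy1 was not. None of 9 muscle, 6 adipocyte, 7 male germ cell, 5 endothelial and 5 epithelial markers was detected on MOE430A, while 2 of 6 macrophage markers, Csf1r and Cd14, were. On MOE430B the epithelial marker Epcam was detected, with 31382 in sample 1, 139544 in sample 4 and 29693 in sample 5. The summed signal of the 12 fibroblast markers on MOE430A was 447169 in sample 1, 480828 in sample 4 and 199961 in sample 5. Ratios of 3' to 5' control probe sets, a sign of RNA integrity and labelling, also differed between samples. On MOE430A the Gapdh ratio was 24.7 in sample 1, 15.0 in sample 4 and 10.6 in sample 5. The MOE430A array of sample 5 was run on a second fluidics station and those of samples 1 and 4 on the first, so station and sample cannot be told apart on that design.

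On MOE430A, 72 of 81 member genes were detected, or 88.9%, against 32.2% of the 12394 genes of the design. Genes with more probe sets had more chances to be called. Among genes with 1 probe set, 28 of 36 members were detected, against 22.1% of all such genes. Among genes with 2 or more, 44 of 45 members were detected, against 47.3% of all such genes. By complex, 31 of 33 complex I genes, 4 of 4 complex II genes, 9 of 9 complex III genes, Cycs, 11 of 17 complex IV genes and 16 of 17 complex V genes were detected on MOE430A. Complex IV, with its tissue isoforms, thus held 6 of the 9 genes not detected. Of the 154 member probe sets of this design, 119 were above the limit on all 3 arrays, against 25.7% of all probe sets naming 1 gene. On MOE430B, 4 of 17 member genes were detected, or 23.5%, against 18.6% of the 9611 genes of that design. Of the 84 members, 67 were measured only on MOE430A, 3 only on MOE430B and 14 on both. The 3 on MOE430B only were Cox7b2, Ndufa4l2 and Ndufb4. Cox7b, the general form of subunit 7b in complex IV, had no probe set that named it alone and was not analysed here.

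The isoform families of complex IV divided by the tissue in which each form is known. Cox4i1, the general form of subunit 4, had signals of 20732, 18326 and 16117 in samples 1, 4 and 5. Its lung form Cox4i2 had 1009, 1013 and 1008, above the limit only on the array of sample 5. The general form was thus above background on every array and the lung form lay at the limit. Cox6a1, the general form of subunit 6a, had 58029, 54981 and 40234. Its heart and skeletal muscle form Cox6a2 had 956, 463 and 549, below the limit on each MOE430A array, and was not detected on MOE430B either. The same division held for subunit 6b. Cox6b1, its general form, had 127964, 81676 and 61899. Cox6b2, its testis form, had 34.5, 28.6 and 169. The testis form was below the limit on all 3 arrays.

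In the subunit 7a family, Cox7a2, the general form, had 42527, 45241 and 34825 in samples 1, 4 and 5, and Cox7a2l, a related protein that joins complexes III and IV, had 55872, 33356 and 38194. Cox7a1, the heart and skeletal muscle form, had 38.0, 111 and 27.6. Only the muscle form of this family was below the limit. In the subunit 8 family, Cox8a, the general form, had 10725, 13187 and 8290, and Cox8b, the heart and skeletal muscle form, had 65.8, 31.0 and 83.5. Cox8c, known as a testis form, was an exception among the tissue-restricted forms. It had 3130, 2795 and 2666 on MOE430A and 11602, 4574 and 6960 on MOE430B, above the limit on all 6 arrays. None of the 7 male germ cell markers was detected on MOE430A, where their summed signal was 1258, 1071 and 1292 over the 7 genes. Cox7b2, the testis form of subunit 7b, had 1430, 668 and 716 on MOE430B and was not detected. Ndufa4, first counted in complex I and now placed in complex IV, had 9409, 12256 and 6321 on MOE430A, while Ndufa4l2, a relative known for induction by low oxygen, had 776, 815 and 795 on MOE430B and was not detected. Because each of these values comes from its own probe set, signals of the forms were not compared as amounts.

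**Figure D1:**
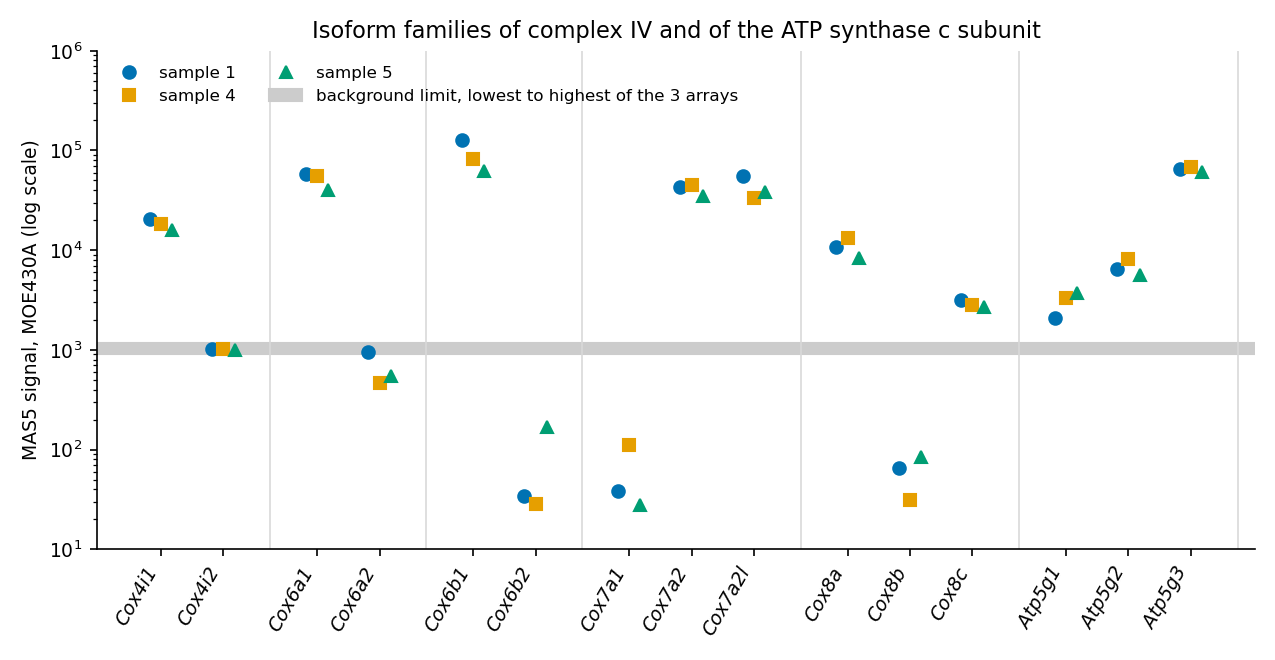
MAS5 signal on a log axis for each gene of 5 complex IV isoform families and of the ATP synthase c subunit family on MOE430A, with 1 point for each of samples 1, 4 and 5 and a grey band from the lowest to the highest background limit of the 3 arrays. Points of Cox6b2, Cox7a1 and Cox8b lie far below the band, Cox4i2 lies in it, and Cox8c and all 3 Atp5g genes lie above it.

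The c subunit, whose ring turns in the ATP synthase, is encoded by 3 genes that give the same mature protein, and all 3 were detected on MOE430A. Atp5g1 had 2106, 3303 and 3730 in samples 1, 4 and 5, Atp5g2 had 6406, 8107 and 5589, and Atp5g3 had 64544, 68837 and 60642. Atp5g1 was lowest in sample 1, Atp5g2 in sample 5, and Atp5g3 stayed within 1.5-fold over the samples. Single probe sets for Atp5g1 and Atp5g2 on MOE430B were below that design's limit in every sample.

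Not all genes below the limit were tissue forms. Cox7c, a complex IV subunit found in most tissues, had 263, 30.0 and 142 in samples 1, 4 and 5 by the brighter of its 2 probe sets. Atp5l, the g subunit in the membrane part of the ATP synthase, had 788, 861 and 883. Ndufb1, an accessory subunit of complex I, had 270, 603 and 348. Cox7c, Atp5l and Ndufb1 were below the limit on all 3 arrays, which bounds these probe sets only. Ndufs5, another accessory subunit of complex I, had 1142, 1199 and 919 and missed detection only on the array of sample 1. A further probe set, which names Ndufs5 together with its pseudogene and so was left out of the members, had 2531, 2027 and 2247, above the limit on all 3 arrays.

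For differences between samples, each gene was represented by its probe set of highest mean log2 signal, and genes whose mean log2 signal exceeded the mean log2 limit were kept. On MOE430A this kept 73 members among 4915 genes. The members' median range, the highest minus the lowest log2 signal of the 3 samples, was 0.60, or 1.52-fold, against 0.71, or 1.63-fold, over all genes. A range of at least 2-fold was found in 8 of 73 members, against 29.2% of all genes. A range under 1.5-fold was found in 32 of 73 members, against 39.1% of all genes. Members thus reached the wide end of the range less often than the background share and had a similar share at the narrow end. Of the 73 members, 58 were in the brightest of 3 equal classes of genes, where the median range was 0.60 for members and 0.71 for all genes. Among genes above the limit on 3 of 3 arrays the medians were closer, at 0.61 for members and 0.65 for all genes. Leaving out sample 4 brought the medians to 0.50 for members and 0.51 for all genes.

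By the median, members lay slightly high in sample 1 and low in sample 5. The deviation of a sample is its log2 signal minus the mean log2 signal of the other 2 samples. In sample 1 the median deviation was 0.26 over members and 0.03 over all genes, and 51 of 73 members were above the other samples, against 52% of all genes. In sample 4 it was 0.10 over members and 0.03 over all genes, with 48 of 73 members above, against 53.2%. In sample 5 it was -0.28 over members and -0.04 over all genes, with 56 of 73 members below, against 52.8%. The size of the shift at the median was 1.19-fold in sample 1 and 1.22-fold in sample 5, well under 2-fold. The order sample 1 over 4 over 5 held for 27 of 73 members, against 24.1% of all genes, and the opposite order for 10 of 73, against 20.7%. Sample 5 was the lowest for 41 of 73 members, against 40.6%, and sample 1 the highest for 39 of 73, against 36.1%. Without sample 5, the median of sample 1 was 0.12, and that of sample 4 turned to -0.12. The summed fibroblast markers were also lowest in sample 5, and the 3' to 5' ratios ran in the same order as the medians of the 3 samples. The part of either in these medians was not tested.

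By the probe set used for each gene, the median deviation in sample 5 was below 0 in each of the 5 complexes. In sample 5, 25 of 32 complex I genes, 10 of 11 complex IV genes and 12 of 16 complex V genes past the filter were below the other samples. So were 3 of 4 complex II genes and 6 of 9 complex III genes, counts that rest on few genes. The share over all genes was 52.8%. The median deviations in sample 5 were -0.17, -0.28, -0.20, -0.33 and -0.30 for complexes I to V. In sample 1 the medians were 0.28, 0.13, 0.27, 0.27 and 0.20. In sample 1, 34 of 43 accessory subunits were above the other samples, with a median deviation of 0.30, against 52% of all genes. So were 7 of 12 core subunits, most of which carry redox centres, with a median of 0.05, against the same 52%. In sample 5, 36 of 43 accessory subunits were below, with a median of -0.33, and so were 7 of 12 core subunits, with a median of -0.13, against 52.8%. The counts of core subunits were near the background share, and no test of a difference between accessory and core subunits was made.

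**Figure D2:**
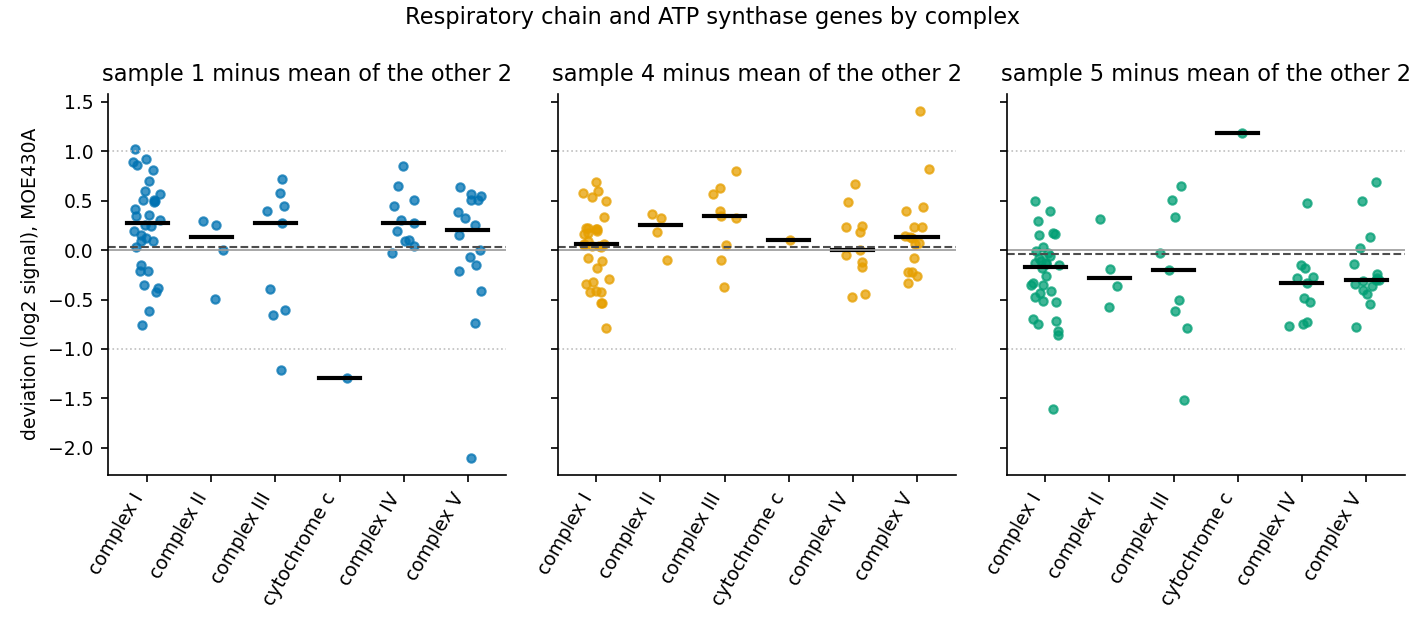
Deviation in log2 signal of each member past the filter on MOE430A, with 1 panel for each of samples 1, 4 and 5, 1 point for each gene, a black bar at the median of each complex, a dashed line at the median of all genes and dotted lines at 2-fold. In sample 5 the bars of complexes I to V lie between -0.33 and -0.17 and cytochrome c stands apart at 1.19.

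Only 5 of 73 members differed by at least 2-fold between any sample and the mean of the other 2, against 22.1% of all genes. Atp5b, the catalytic beta subunit of the ATP synthase, had 4075, 20611 and 14780 in samples 1, 4 and 5. Its signal, from 1 probe set only, was lowest in sample 1, with a deviation of -2.10, and highest in sample 4, with a deviation of 1.41. The alpha subunit Atp5a1, which alternates with beta in the catalytic head, had 36942, 33771 and 25939 by its brightest probe set. The alpha subunit was thus lowest in sample 5 by that probe set. Its other probe set above the limit on all arrays had 13561, 31907 and 22346. By that one it was lowest in sample 1 and highest in sample 4, as Atp5b was. The gamma subunit Atp5c1, the central shaft, had 22319, 25516 and 26229 and stayed within 1.5-fold. Atp5o, which links the peripheral stalk to the head, had 6198, 10966 and 6242 by its brightest probe set, highest in sample 4, while its other probe set had 1435, 1090 and 1285, lowest there. Of the 4 stalk genes, 2 were above the other samples in sample 4 and 2 below.

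Cycs, which encodes cytochrome c, had 7613, 14491 and 23905 in samples 1, 4 and 5. Its order, sample 5 over 4 over 1, was the opposite of the most frequent order among members, with deviations of -1.29 in sample 1 and 1.19 in sample 5. A second Cycs probe set had 2337, 3670 and 5850, in the same order. The other had 3630, 2819 and 5881, also highest in sample 5 but lowest in sample 4. The deviation in sample 1 was under 2-fold when the 3 probe sets were averaged, at -0.81, and without sample 5, at -0.93. Uqcrfs1, the Rieske iron-sulphur protein of complex III, had 2786, 6364 and 6584 by its only probe set. It was low in sample 1, with a deviation of -1.22, and alike in samples 4 and 5. Cyc1, which encodes the cytochrome c1 of complex III, had 8907, 10196 and 13495 and was also highest in sample 5.

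Ndufv3, a small accessory subunit near the NADH-binding site of complex I, had 24182, 19656 and 7170 in samples 1, 4 and 5 by its only probe set. It was high in sample 1, with a deviation of 1.03, and low in sample 5, with a deviation of -1.60. The partners that bind NADH and the first iron-sulphur centres, Ndufv1 and Ndufv2, had deviations in sample 5 of -0.43 and -0.18 by their brightest probe sets. Their other probe sets above the limit had -0.16 and 0.04 for Ndufv1 and -0.37 and 0.02 for Ndufv2. Uqcr10, a small subunit of complex III, had 3068, 3188 and 1092 and was low in sample 5, with a deviation of -1.52. That value rests on 1 of 3 Uqcr10 probe sets, since another had 377, 1446 and 1386 and was lowest in sample 1. Averaged over the 3 probe sets, the deviation in sample 5 was -0.30.

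In each sample the count of such members stood beside a background of a few percent. At least 2-fold higher in sample 1 was Ndufv3 alone, against 6.21% of all genes, and at least 2-fold lower there were Atp5b, Cycs and Uqcrfs1, against 6.96%. In sample 4, Atp5b was at least 2-fold higher, against 3.01%, and no member lower, against 2.75%. In sample 5, Cycs was at least 2-fold higher, against 7.71%, and Ndufv3 and Uqcr10 lower, against 8.18%. The shares of members, 3 of 73 at most, were below these backgrounds. Between samples 1 and 5 alone, without sample 4, 7 of 72 members differed by at least 2-fold, against 21.4% of all genes. Between samples 4 and 1, 3 of 73 did, against 9.91%, and between samples 5 and 4, 2 of 74, against 14.7%.

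The next widest spreads belonged to accessory subunits and to 2 complex IV genes. Ndufa5, of the matrix arm of complex I, had 6752, 3062 and 4160 in samples 1, 4 and 5 and was highest in sample 1. Ndufb7, of its membrane arm, had 22576, 15847 and 10441, and Ndufa13, also called Grim19, had 33642, 25017 and 17217. By these probe sets Ndufb7 and Ndufa13 shared the order sample 1 over 4 over 5, as did Cox6b1. A second Ndufb7 probe set above the limit had 2668, 3340 and 2016, highest in sample 4. At the other end, 3 members with the narrowest spread were Ndufb8 in complex I, with 11231, 11011 and 10138, Atp5g3, and Atp5pb, the b subunit of the peripheral stalk, with 8634, 9846 and 9355. The widest spread, 2.34 for Atp5b, and the narrowest, 0.15 for Ndufb8, are both on the log2 scale.

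**Figure D3:**
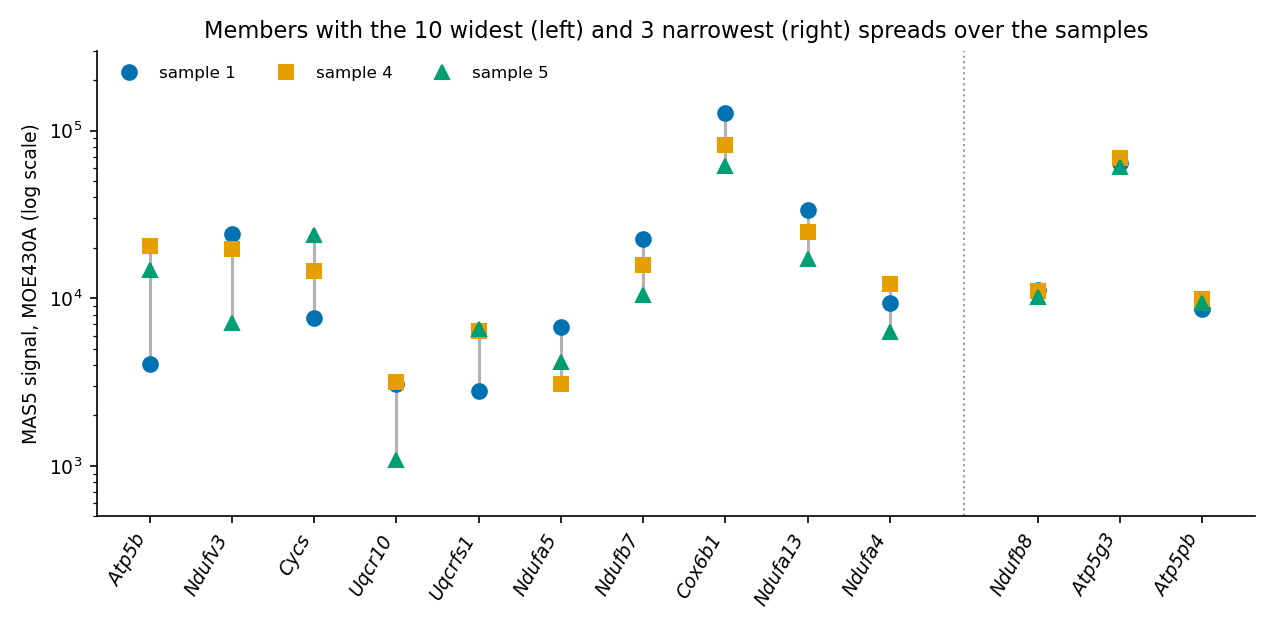
MAS5 signal on a log axis in samples 1, 4 and 5 for the 10 members with the widest and the 3 with the narrowest spread on MOE430A, with a grey line from the lowest to the highest sample of each gene. Atp5b, Cycs and Uqcrfs1 have their lowest point in sample 1, and Ndufv3 and Uqcr10 in sample 5.

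The remaining core subunits varied by less. In complex I, Ndufs1, the largest subunit, had 1530, 2869 and 2346 in samples 1, 4 and 5, and Ndufs3 had 2159, 2693 and 2949. Both were lowest in sample 1, while Ndufs7, with 18365, 12033 and 14040, was highest there. In complex II, the flavoprotein Sdha had 9592, 9889 and 6533 and the iron-sulphur protein Sdhb 7471, 8829 and 6312. The membrane anchors Sdhc and Sdhd had 4500, 3750 and 3587 for Sdhc and 1958, 2671 and 2844 for Sdhd. By these probe sets the catalytic subunits of complex II were lowest in sample 5, and its anchors ran in opposite orders. A second Sdha probe set above the limit had 5678, 9880 and 8883, lowest in sample 1. A second Sdhc probe set above the limit had 2191, 3745 and 2178, highest in sample 4. Uqcrc1 and Uqcrc2 are known as core proteins of complex III but have no redox centres and were counted above as accessory. By the brightest probe set of each they also ran in opposite orders. Uqcrc1 had 3996, 7079 and 5229, and Uqcrc2 had 17001, 10978 and 11875. A second Uqcrc2 probe set above the limit had 5429, 5009 and 4089, lowest in sample 5.

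Several probe sets of 1 gene often gave different orders of the samples. On MOE430A, 34 members had 2 or more probe sets above the limit on all arrays. Their probe sets shared both the highest and the lowest sample in 3 of 34 members, Atp5k, Cox6b1 and Ndufa3, against 29.8% of the 922 such genes. Among genes with exactly 2 such probe sets, both were shared in 2 of 24 members, against 33.4%. Neither was shared in 7 of the 34, against 31.1%. In 6 of 34 the deviations in sample 1 differed by 1 or more on the log2 scale between probe sets, against 17.7%. Full agreement was less frequent among members than in the background share, and full disagreement was not more frequent.

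The 7 members with no shared extreme were Atp5a1, Cox6c, Ndufb9, Ndufs4, Ndufs8, Ndufv2 and Uqcrb. A second probe set of Atp5a1 had 13561, 31907 and 22346 in samples 1, 4 and 5, lowest in sample 1 where the brightest was highest. Uqcrb, a small complex III subunit that helps bind ubiquinone, had 160225, 159895 and 92661 by its brightest probe set and 2213, 3453 and 4682 by the other. The first placed sample 5 lowest and the second placed it highest. Cox6c, a complex IV subunit, had 14945, 11247 and 10659 by one probe set and 6692, 8571 and 10922 by the other, again in opposite orders. Ndufs8, a core iron-sulphur subunit of complex I, had 5 probe sets above the limit on all arrays, and 4 of them were within 1.5-fold of their other samples in sample 1 while the fifth had a deviation of -0.74. The 3' to 5' ratio of beta-actin on MOE430A, 17.5 in sample 1, 9.57 in sample 4 and 8.68 in sample 5, differed between the same samples, and its part in these orders was not tested.

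**Figure D4:**
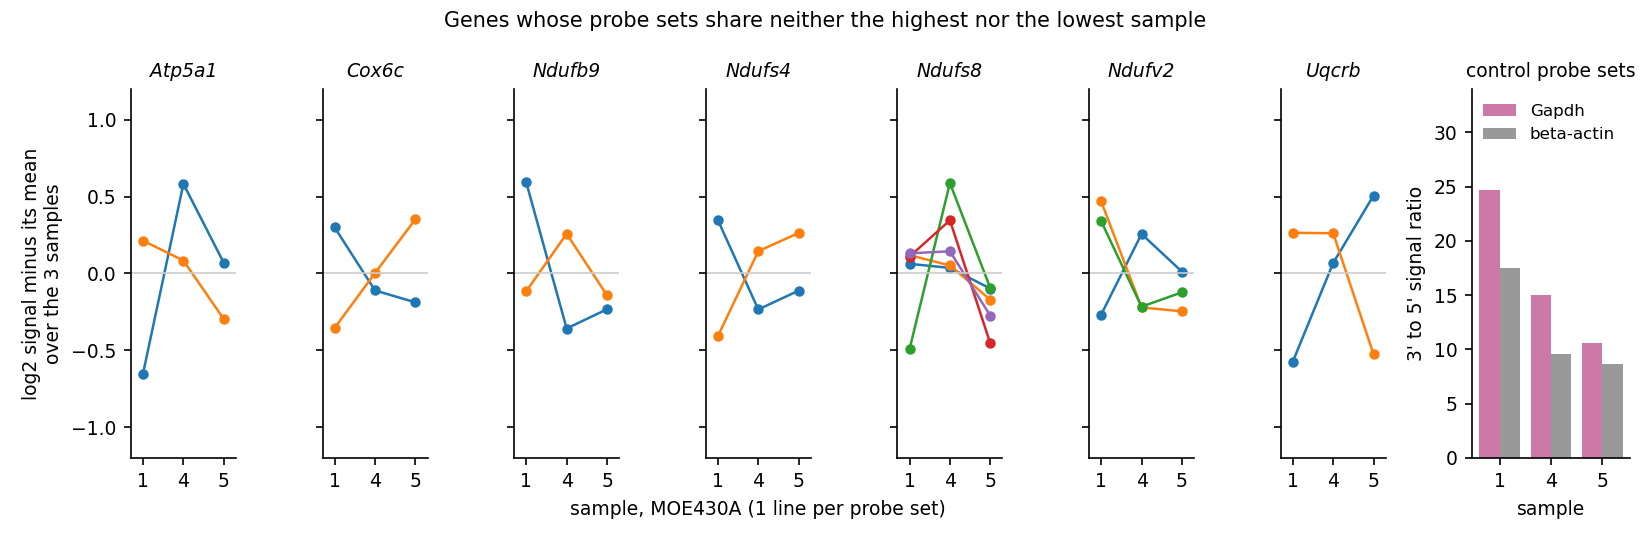
Log2 signal minus its mean over samples 1, 4 and 5 for each probe set above the limit of the 7 members whose probe sets share no extreme sample on MOE430A, with 1 line for each probe set, beside bars of the 3' to 5' ratios of Gapdh and beta-actin in the same samples. Lines of Cox6c and Uqcrb cross, and both ratios are highest in sample 1.

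Values of the 4 members detected on MOE430B were set beside those of MOE430A without joining the scales. Uqcrh, the hinge protein of complex III, had 19900, 20960 and 20393 on MOE430B in samples 1, 4 and 5, within 1.5-fold of each other. On MOE430A its deviations were 0.45, 0.06 and -0.50. Atp5j2, the f subunit of the ATP synthase, had 7127, 3968 and 3365 on MOE430B and 20606, 16639 and 15008 by its brightest probe set on MOE430A, in the same order. Its other MOE430A probe set had 3590, 3708 and 3162, highest in sample 4. Ndufc2, an accessory subunit of complex I, had 9114, 13764 and 17897 on MOE430B, lowest in sample 1, and 13017, 11134 and 12268 on MOE430A, highest in sample 1. Cox8c on MOE430B had a deviation of 1.04 in sample 1 and was the only member at least 2-fold higher there, against 4.12% of that design's genes. On MOE430A its deviation in sample 1 was 0.20. The MOE430B value comes from a probe set that can match several transcripts, and without sample 4 it was 0.74, under 2-fold. The other 10 members measured on both designs, among them Cycs, Sdha and Ndufs4, were below the MOE430B limit on at least 1 array.

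Other genes of mitochondrial energy metabolism gave the setting of these values on MOE430A. Of 34 measured assembly factors, which build the complexes, 16 were detected, as were 13 of 17 genes of the citric acid cycle and pyruvate dehydrogenase, 9 of 11 carriers and pores, and 7 of 23 biogenesis regulators and mitochondrial DNA expression genes, against 32.2% of all genes of the design. The last of these counts was near that share. In sample 1 the median deviation of carriers and pores was -0.28, and in sample 4 all 9 of them past the filter were above the other samples, against 53.2% of all genes. Slc25a5, an exchanger of ADP and ATP, had 7647, 16452 and 16994 in samples 1, 4 and 5, and Vdac2, a pore of the outer membrane, had 7118, 12489 and 15822. Slc25a5 and Vdac2 were lowest in sample 1, like Atp5b, Cycs and Uqcrfs1, and so were 33.9% of all genes. The other carriers named for their wide range differed. Slc25a11 had 2029, 4405 and 2036, nearly alike in samples 1 and 5, and Slc25a20 had 2365, 2487 and 1221, lowest in sample 5. Idh3a, a citric acid cycle dehydrogenase subunit, had 1109, 1924 and 3496, and Pcx, pyruvate carboxylase, had 1864, 1945 and 580. Cox15, an enzyme of haem A synthesis, had 1536, 817 and 2528. Sample 5 was thus the highest for Idh3a and Cox15 and the lowest for Pcx. For each of these genes the lowest signal lay under the limit of its array. On MOE430B Idh3a had 5658, 6169 and 7393, in the same order with a narrower range of 0.39, against 1.66 on MOE430A. In sample 5, 7 of 10 biogenesis and mitochondrial DNA expression genes past the filter were above the other samples, against 47.2% of all genes, with a median deviation of 0.30. Nrf1, which encodes the NRF-1 factor, had 1272, 1851 and 843, and Gabpa, which encodes a subunit of GABP, had 1493, 1373 and 2444. The Nrf1 signal in sample 5 also lay under the limit of its array.

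The promoters of the members were read from RefSeq, build GRCm38.p6, in windows from 250 bases before to 50 after the start. Of 84 members, 68 had a window there. Letters searched on both strands were the NRF-1 consensus, CCGGAAG for ETS factors such as GABPA, AAGATGGC for YY1 and TGACGTCA for the cyclic AMP response element, or CRE. The NRF-1 letters were in 15 member genes, or 22.1%, against 7.17% of 17492 protein-coding genes. The ETS letters were in 17 members, or 25%, against 12.9%. The YY1 letters were in 9 members, or 13.2%, against 3.57%, and the CRE in 4 members, or 5.88%, against 2.54%. At least 1 of the 4 motifs was in 40 members, or 58.8%, against 22.8% of protein-coding genes, and no match overlapped another motif. A match describes letters only and is not a measured site.

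**Figure D5:**
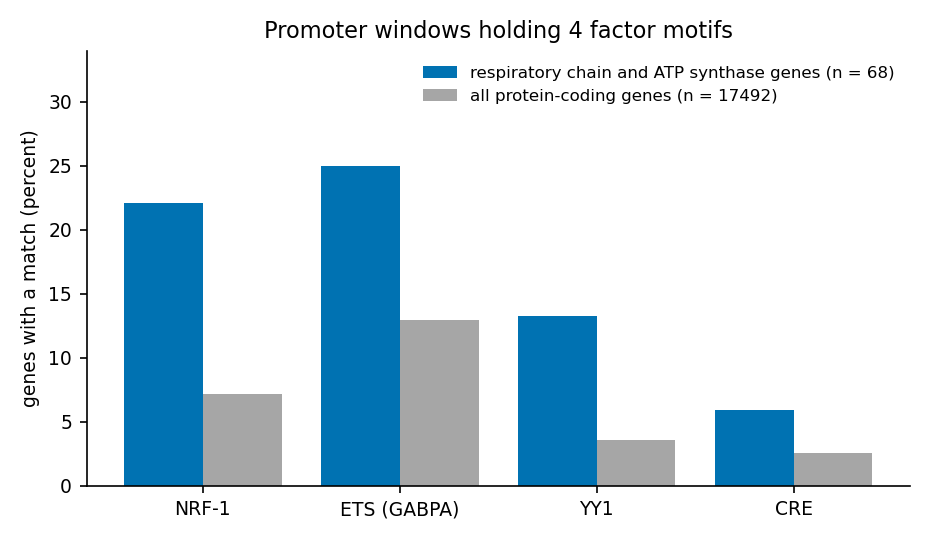
Percent of genes whose RefSeq promoter window holds each of 4 motifs, with blue bars for the 68 respiratory chain and ATP synthase genes and grey bars for 17492 protein-coding genes. The blue bar is the higher of each pair, by the largest number of percentage points for NRF-1.

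The Sdha and Ndufb4 windows each held 3 matches to the NRF-1 letters, and Sdha is shown because its matches lie closer together. The CRE was in the windows of Cycs, Uqcrfs1, Ndufa10 and Ndufb2. Cycs and Uqcrfs1 are shown because both were at least 2-fold lower in sample 1, while the deviations there were -0.21 for Ndufa10 and 0.50 for Ndufb2. The windows were chosen after matches and signals had been seen. Stretches are upstream of the start on the minus strand of GRCm38.p6, printed 5′ to 3′ in lower case with the motif letters in capitals. Sdha lies at chr13:74350241-74350350, Cycs at chr6:50566715-50566754 and Uqcrfs1 at chr13:30545322-30545361.
Sdha: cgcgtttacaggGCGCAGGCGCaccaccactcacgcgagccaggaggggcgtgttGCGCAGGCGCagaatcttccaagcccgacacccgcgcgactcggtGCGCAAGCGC
Cycs: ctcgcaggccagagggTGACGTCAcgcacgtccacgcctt
Uqcrfs1: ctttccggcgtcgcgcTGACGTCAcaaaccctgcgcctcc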

How the data were processed

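Total RNA of 3 samples was measured on 2 Affymetrix designs, 6 arrays in all. The deposited values are linear signal intensities, 1 for each probe set on each array. Per the submitters' processing notes the authors used MAS5, with no version or settings stated in the sources used here. Other deposited values, the run settings of each array per the file headers, served only to read array design and fluidics station. No build is named in the intensity tables, so only RefSeq promoter windows carry coordinates. No detection calls were used.

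Gene names came from the platform tables. MOE430A had 20393 probe sets naming 1 gene, 691 naming several and 1606 naming none, and MOE430B had 14674, 245 and 7656. Signals were set to at least 1 before log2. The background list held 142 genes, with 156 probe sets measured on MOE430A and 21 measured on MOE430B. It, and the assignment of genes to complexes and roles, were written by hand after member signals had been displayed. Members and lists were chosen with earlier results of these data known. Scripts used Python 3.11.15 with numpy 2.4.6, pandas 2.3.3 and matplotlib 3.10.9, and were tested on simulated data. No p-values were computed, since there is 1 group. The number of arrays limits the precision.

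Named genes were the isoform families, a list of main subunits (the core subunits with Uqcrc1, Uqcrc2, Atp5a1, Atp5b, Atp5c1 and Atp5o), members not detected, the 10 widest and 3 narrowest spreads on MOE430A, members measured on both designs, those whose probe sets shared no extreme sample, and up to 4 genes of widest range for each context list. Atp5k, Ndufa10, Ndufa11 and Ndufs6, outside this rule, were named after their values were seen, and other members enter only the counts. Alternatives changed the limit, the arrays and probe sets needed, probe sets matching several transcripts, normalization, pseudocount, filter, fold threshold and samples. A comparison of isoform protein sequences was not run.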

Additional observations from a re-analysis of the deposited data

How the results depend on the processing

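Of 138 alternatives to the counts and medians, 115 stayed within 1.5 times the count or within 1 SD of the median, and 23 did not. The SD here and below is the median over members of each gene's SD of log2 signal between samples. This span is wide against the median deviations, so staying within it does not show that a median is stable. Without sample 5, the MOE430A medians went from 0.26 to 0.12 in sample 1 and from 0.10 to -0.12 in sample 4. Both counted as within it. Detection on MOE430A ranged from 61 members, when a majority of its probe sets had to pass, to 74 with the 90th percentile limit. Detection on MOE430B fell to 1 member without probe sets matching several transcripts. At a threshold of 1.5-fold, 19 of 73 members differed in sample 1, 8 in sample 4 and 16 in sample 5 on MOE430A, against 33.0%, 21.2% and 37.0% of all genes. On MOE430B, 3, 1 and 2 of 4 did, against 30.6%, 22.9% and 33.0%. This alternative is looser by construction. With no filter, which adds dim genes, the counts at 2-fold were 5 of 81 in sample 4 and 5 in sample 5 on MOE430A, against 18.9% and 24.6% of all genes, and 7, 5 and 2 of 17 in samples 1, 4 and 5 on MOE430B, against 30.5%, 27.8% and 29.1%. On MOE430B quantile normalization gave 2 of 4 members in sample 1 and 1 of 4 in sample 4, against 12.0% and 6.46% of all genes. Removal of probe sets matching several transcripts left 1 member past the filter on MOE430B, Atp5j2. The count in sample 1 was then 0 of 1, and the median deviation of -0.66 in sample 5 is the value of that gene. Except where construction shows it, the cause was not tested.

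Leaving out 1 sample in turn left the difference between the other 2. On MOE430A the count at 2-fold was then 3 to 7 in sample 1, 2 to 3 in sample 4 and 2 to 7 in sample 5, with 7 each for samples 1 and 5 without sample 4. These counts are of 72 to 74 members, against 9.91% to 21.4% of all genes. On MOE430B the count in sample 1 was 1 of 4 either way, against 17.7% of all genes without sample 4 and 10.4% without sample 5. In samples 4 and 5 it was 0 of 5 without sample 1, against 12.8%. It was 1 of 4 otherwise, against 10.4% in sample 4 and 17.7% in sample 5. The median range on MOE430B was 0.38 to 0.86, lowest without sample 1. The median of sample 5 on MOE430A was -0.15 without sample 1 and -0.39 without sample 4. Of 600 alternatives for the deviations of single genes, 574 were within 1 SD or kept their 2-fold call and 0 turned the sign of a called gene. A 2-fold call was lost in 4. Averaging probe sets brought Cycs in sample 1 to -0.81 and Uqcr10 in sample 5 to -0.30. Cycs in sample 1 had -0.93 without sample 5, and Cox8c in sample 1 on MOE430B had 0.74 without sample 4. Of 874 alternatives for detection of single genes, 845 gave the same answer. No paired analysis was possible because there is 1 group and no contrast, and the 2 designs hybridised the same numbered samples.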

Other observations

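Probe sets that name a member together with other genes were left out of the members and are given here as values. On MOE430A, a probe set naming Ndufs6 and Ndufs6b had 8336, 9130 and 9168 in samples 1, 4 and 5, above the limit on all 3 arrays. Ndufs6 carries zinc in the matrix arm of complex I. A probe set naming Ndufa11 and Ndufa11b had 2061, 2909 and 1479 on MOE430A, above the limit on all 3 arrays, and another on MOE430B had 4287, 3442 and 1427, above the limit on 2 of 3. One of 2 probe sets naming Ndufb4, Ndufb4b and Ndufb4c had 9233, 8395 and 7987 on MOE430A, above the limit on all 3 arrays, while Ndufb4 alone, measured on MOE430B with 1743, 1462 and 2068, was below that design's limit in every sample. Near-identical genes cannot be told apart in these probe sets.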
